A study of Homo sapiens with 41 samples.

Results

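H19, IGF2, CDKN1C, MEG3, MEST, PEG10, PLAGL1 and NDN are 8 imprinted genes with roles in growth control. They were taken by symbol from the 6 deposited expression tables, which list 23588 symbols in all, 21375 of them in every table. The 8 genes were picked from their measured levels in each line, in A375 tumours against culture and in each drug group against its vehicle. Those values are therefore a description here and carry no p-value; where a change is said to pass or miss the threshold, or to do so with another tool or fewer libraries, that too only describes it. The comparison of A375R tumours grown with and without A375 cells was not used in picking them and is tested. Genes beyond the 8 come from lists chosen with earlier results of these data known. Most of those named were picked by smallest adjusted p, so p-values of list genes are descriptive too.

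An imprinted gene is transcribed mainly from the copy inherited from one parent. The copy from one of the parents is marked by DNA methylation at a control region shared by a cluster of genes. H19, a long noncoding RNA, and IGF2, a fetal growth factor, share such a region on chromosome 11: the maternal copy makes H19 and the paternal copy makes IGF2. CDKN1C, an inhibitor of cyclin-dependent kinases, and PHLDA2, a placental growth restrictor, lie in the neighbouring maternally expressed cluster. MEG3 is a maternally expressed noncoding RNA. MEST (a hydrolase-like protein), PEG10 (a protein derived from a retrotransposon), PLAGL1 (a zinc-finger transcription factor) and NDN (necdin, a growth suppressor of neurons) are expressed from the paternal copy. These genes are active in fetal and placental tissue, are mostly turned down after birth, and several are active again in cancers.

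RNA was sequenced from 41 samples in 15 groups of human cancer cells treated with a drug against their driver oncogene or with vehicle. In culture these were A375 melanoma cells under vehicle, or vemurafenib (an inhibitor of mutant BRAF) at 0.1 µM for 6 h or 48 h (3 samples each). Colo800 and UACC62 melanoma cells received vehicle or 1 µM vemurafenib for 48 h (2 samples each), and H3122 lung adenocarcinoma cells vehicle or crizotinib (an ALK inhibitor) at 0.3 µM for 48 h (2 samples each). All cultures were in medium with reduced serum during treatment. A375 tumours grown under the skin of mice from cells injected with matrigel were treated with vehicle or with 10 vemurafenib doses of 75 mg/kg (4 samples each). Tumours of A375R cells, the drug-resistant counterpart of A375, were grown alone or mixed with A375 cells and given vehicle or the same vemurafenib course (3 samples each). Alone and mixed are read from the sample titles and the growth protocol. Tumour RNA was ribosome-bound RNA pulled down on GFP beads through a tagged ribosomal protein (RPL10a), and culture RNA was whole-cell RNA. The mouse strain and age and the handling of mouse reads are not stated in the labels or processing notes. The labels do not tie replicates to separate cultures or mice, so a p-value here reflects only sample-to-sample spread, which may be technical.

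Libraries held 8063754 to 42843612 reads in genes and detected 16440 to 17844 genes. The melanocyte marker list (7 genes) summed to 762 to 982 RPM (reads per 1000000 reads of the library) in vehicle-treated A375 culture, 3808 to 4013 in Colo800 and 1243 to 1269 in UACC62, but only 57.3 to 85.7 in vehicle-treated A375 tumours, where TYR and DCT were at 0. In A375R tumours grown alone under vehicle it summed to 11.3 to 21.4, with TYR and DCT at 0, so the melanoma label has little marker RNA behind it there. In H3122, NKX2-1, a lung lineage factor, stood at 3285 ± 193 normalised reads (SD, n = 2) under vehicle, while the surfactant gene SFTPC was at 0. Stromal markers summed to 93.1 to 125 RPM in vehicle-treated A375 tumours and 54.3 to 65.1 under vemurafenib, against 27.0 to 39.1 in vehicle culture. The 7 genes did not move together in those tumours. COL3A1 rose (log2 change 2.66 ± 0.25, SE), while COL1A2 (-3.73 ± 0.39), PDGFRA (-3.14 ± 0.22) and PDGFRB (-1.44 ± 0.10) fell. COL1A1, DCN and LUM did not pass the threshold. Vehicle-treated A375 culture itself held PDGFRB (190 normalised reads) and LUM (93.9), so the sum is not of stroma alone. Endothelial markers stayed between 0.740 and 2.35 RPM in all tumours. In RNA pooled from many cells, fewer cells of a type and less RNA per cell cannot be told apart. In the tumour pull-downs, how much RNA of cells without the tagged protein came along was not measured either.

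The sequences below are shown because H19 and NDN moved in opposite directions under vemurafenib in A375 tumours and cultured melanoma lines at 48 h. A further reason is that H19 RNA carries the precursor of miR-675. RefSeq entries on GRCh38.p14 gave a start-site window for 5 of the 8 genes, with none for IGF2, CDKN1C and PEG10. Windows run 5′ to 3′ on the gene's strand and CG pairs, the dinucleotides that DNA methylation marks, are in capitals. The H19 window is chr11:2001217-2001516 on the minus strand and the NDN window is chr15:23687256-23687555 on the minus strand; both cover the start of the transcript and the sequence just before it.
H19 promoter: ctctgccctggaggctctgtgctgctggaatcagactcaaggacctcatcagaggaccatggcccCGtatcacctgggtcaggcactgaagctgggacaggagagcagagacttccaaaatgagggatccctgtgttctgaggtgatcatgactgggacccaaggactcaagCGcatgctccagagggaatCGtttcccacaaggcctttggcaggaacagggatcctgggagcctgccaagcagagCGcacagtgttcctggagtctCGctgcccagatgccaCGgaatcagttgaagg
NDN promoter: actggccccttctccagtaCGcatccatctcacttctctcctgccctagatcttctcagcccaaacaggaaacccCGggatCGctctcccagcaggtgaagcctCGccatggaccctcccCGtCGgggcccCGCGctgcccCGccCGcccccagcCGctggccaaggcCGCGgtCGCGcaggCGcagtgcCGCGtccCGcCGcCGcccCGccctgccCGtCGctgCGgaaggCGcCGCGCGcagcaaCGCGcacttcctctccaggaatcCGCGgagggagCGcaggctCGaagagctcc
The H19 window holds 6 CG pairs, a number reached or passed by 66.3% of the 35116 windows of the same length in the table, whose median is 14. The NDN window holds 35, which 14.1% of windows reach. The AP-1 motif TGANTCA, searched on both strands, is in 7.71% of all windows, in 1 of 5 MEST and 1 of 5 PLAGL1 windows, and in neither the H19 nor the NDN window. The motif CACGTG is in 7.26% of all windows and, among these genes, in 1 PLAGL1 window. These matches describe letters in a window and say nothing of binding.

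The mature miRNAs encoded in H19 are printed with the seed (bases 2 to 8), which pairs with targets, in capitals.
hsa-miR-675-5p: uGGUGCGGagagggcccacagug
hsa-miR-675-3p: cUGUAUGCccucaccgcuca
Their hairpin lies on the minus strand of chromosome 11, and the seeds of the 2 arms differ. The MIR675 row, listed in 5 tables, was at 0 reads in all 29 libraries, and libraries of this kind do not capture mature miRNAs, so the H19 values below are of the long RNA.

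H19 was at its highest in A375 tumours under vehicle and was almost gone from them after vemurafenib. The vehicle tumours held 50425, 27265, 66714 and 59315 normalised reads (reads divided by the library's size factor), and the treated tumours 187, 273, 258 and 222. The groups were far apart, with the lowest vehicle tumour far above the highest treated one. The means were 50929 ± 17124 and 235 ± 38.7 (SD, n = 4 each), 217-fold lower under the drug, a log2 change of -7.69 ± 0.20 (SE) on the log2(value + 1) scale. H19 had the 9th lowest change of 14069 genes tested. Its reads made up 0.428% of all reads in the vehicle tumours.

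H19 also fell in every cultured line at 48 h, by less. UACC62 held 651 and 627 normalised reads under vehicle and 217 and 180 under vemurafenib, a log2 change of -1.69 ± 0.13. H3122 held 4928 and 5377 under vehicle and 1241 and 1197 under crizotinib, a log2 change of -2.08 ± 0.08. In both lines the drug and vehicle samples did not overlap. Colo800 went from 21.1 and 29.4 to 7.09 and 7.67 (log2 change -1.63 ± 0.35), near the limit of what can be counted. A375 culture held 65.1, 58.6 and 25.4 under vehicle, 57.0, 44.8 and 24.0 at 6 h, and 10.8, 4.13 and 9.94 at 48 h. The 6 h samples overlapped vehicle (log2 change -0.22 ± 0.47), and only the 48 h samples lay below both (-2.43 ± 0.47 against vehicle, from 26 reads in 3 libraries).

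In A375R tumours H19 stood at 900 to 3601 normalised reads in all 12 libraries, and the 4 groups overlapped. Alone, vehicle tumours held 1661, 3601 and 1523 and vemurafenib tumours 900, 2430 and 1697, a log2 change of -0.43 ± 0.34 that did not pass. Mixed, vehicle tumours held 2168, 1055 and 1497 and vemurafenib tumours 1730, 1077 and 1399, a log2 change of -0.13 ± 0.34. Mixing itself gave a log2 difference of -0.47 ± 0.34 under vehicle (limma, adjusted p = 0.497) and -0.17 ± 0.34 under vemurafenib (adjusted p = 0.878), and the effect of the drug did not differ detectably between the settings (interaction 0.30 ± 0.48, adjusted p = 0.776).

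In RPM, H19 ranged from 0.558 in Colo800 under vemurafenib to 3850 ± 1312 in vehicle-treated A375 tumours. H3122 under vehicle came next at 358 ± 17.2 and under crizotinib at 92.2. The 3 A375R groups at 52.4 to 62.8, UACC62 under vehicle at 49.6 and mixed A375R tumours under vemurafenib at 39.9 followed. Treated A375 tumours stood at 14.8 ± 2.68, still above vehicle-treated A375 culture at 4.27 ± 1.87. Of the 14 pairs of neighbouring groups in this order, 6 did not overlap and 8 did. The plot of levels by group shows the same order beside the other genes.

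**Figure D1:**
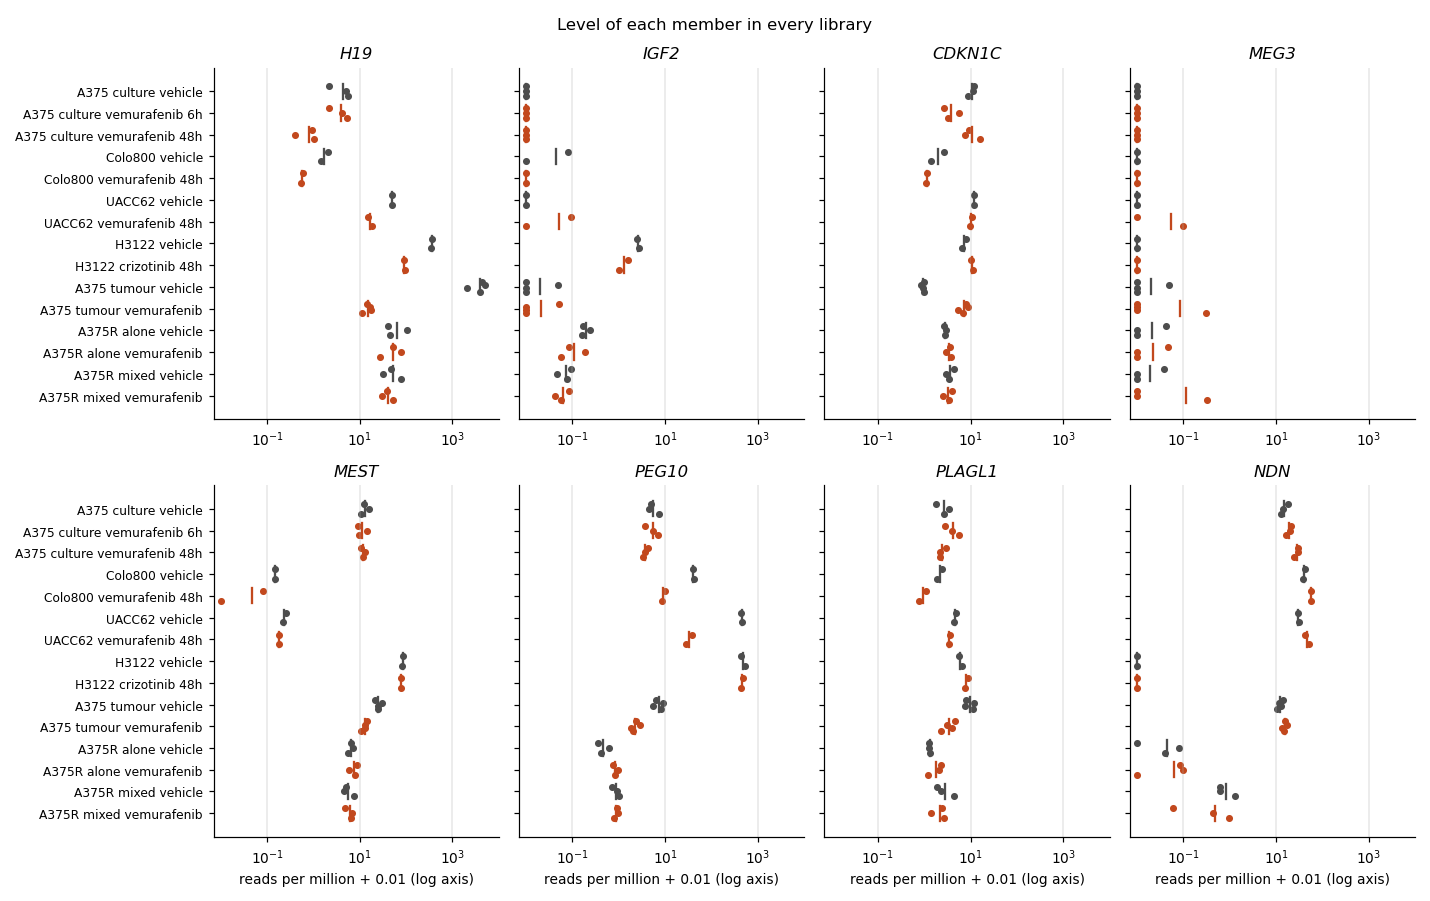
Level of each of the 8 genes in each library (points; RPM on a log axis with a small offset), by group, with the group mean as a short line; vehicle is dark grey and drug orange-red. H19 spans 0.558 to 3850 over group means and is highest in vehicle-treated A375 tumours. MEG3 sits at or near 0 in every group, and IGF2 does so outside H3122.

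IGF2, the growth factor paired with H19, was barely detected. All 9 A375 culture libraries, both vehicle UACC62 libraries and both treated Colo800 libraries had 0 reads, which in vehicle-treated A375 culture allows up to 0.0873 RPM. A375 tumours had 1 read among the 4 vehicle libraries and 1 among the 4 treated libraries. Where H19 was at its highest level, IGF2 was therefore at the edge of detection. Only in H3122 did IGF2 pass the filter on low values (a mean of at least 10 normalised reads over the table): 39.4 and 35.2 normalised reads under vehicle and 13.1 and 20.52 under crizotinib, a log2 change of -1.13 ± 0.30 resting on 76 and 33 reads. The call was lost with DESeq2 and without crizotinib replicate 1 (-0.83). In A375R tumours IGF2 had 20 reads alone and 6 mixed under vehicle, and 10 and 6 under vemurafenib. The row for the INS-IGF2 readthrough gene, which overlaps IGF2, was at 0 in all 41 libraries, and the assignment of reads shared by overlapping genes is not stated in the notes. The library kit does not mark strand, so antisense reads cannot be told apart.

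CDKN1C, which blocks the cell cycle, went the opposite way from H19 in A375 tumours. Vehicle tumours held 12.83, 12.53, 10.69 and 13.1 normalised reads and treated tumours 117, 85.3, 140 and 124, so every treated tumour was well above every vehicle tumour. The log2 change was 3.13 ± 0.19, 9.49-fold higher between means and the 116th highest of 14069 genes. In culture the same cells did the reverse early on. A375 culture held 103, 132 and 138 under vehicle, 35.4, 59.1 and 28.6 at 6 h, and 162, 80.5 and 97.2 at 48 h. CDKN1C was lower at 6 h (-1.63 ± 0.32). At 48 h it lay above the 6 h libraries (1.45 ± 0.32) and on both sides of the vehicle range, 1 library above and 2 below it (-0.19 ± 0.32 against vehicle, not past the threshold). The 6 h call did not hold without vehicle replicate 2 (-1.58), vehicle replicate 3 (-1.55) or 6 h replicate 3 (-1.41).

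The other lines moved little in CDKN1C. Colo800 went from 20.1 and 38.6 to 14.2 and 15.3 (-0.88 ± 0.33), which passed the threshold but not with DESeq2, and not in 3 of the 4 fits without a library (vehicle replicate 2, -0.42, and either treated replicate, -0.82 and -0.93). UACC62 went from 153 and 151 to 112 and 125 (-0.36 ± 0.15), which did not. H3122 went from 92.5 and 117 to 147 and 134 (0.43 ± 0.16), which passed with limma but not with DESeq2 or quantile normalisation, and not in 3 of the 4 fits without a library (vehicle replicate 1, 0.26, and either crizotinib replicate, 0.36 and 0.49). The 12 A375R libraries lay between 90.9 and 141 and no contrast passed, mixed against alone under vehicle being 0.11 ± 0.19 (limma, adjusted p = 0.816), under vemurafenib 0.07 ± 0.19 (adjusted p = 0.921) and the interaction -0.04 ± 0.27 (adjusted p = 0.953). In RPM, CDKN1C was lowest of all 15 groups in vehicle-treated A375 tumours (0.927 ± 0.0719) and highest in vehicle-treated UACC62 (11.8), and 10 of 14 neighbouring pairs overlapped.

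PHLDA2, the growth-restricting neighbour of CDKN1C, is not one of the 8 genes but is in the list of partners at the same loci. It fell in every group whose driver oncogene was inhibited in sensitive cells. A375 culture held 1052, 1002 and 1425 normalised reads under vehicle, 141, 274 and 395 at 6 h (-2.20 ± 0.39, limma, adjusted p = 0.00978) and 50.5, 90.9 and 132 at 48 h (-3.74 ± 0.39, adjusted p = 3.32e-05). Colo800 went from 936 and 939 to 17.2 and 24.9, UACC62 from 376 and 350 to 17.6 and 18.98, and H3122 from 574 and 738 to 94.7 and 104. All of these samples separated from their vehicle. The log2 changes were -5.43 ± 0.15 (limma, adjusted p = 2.95e-16), -4.24 ± 0.17 (adjusted p = 2.26e-07) and -2.70 ± 0.14 (adjusted p = 3.86e-08). A375 tumours went from 2300 ± 257 to 129 ± 8.93 (SD, n = 4 each; -4.15 ± 0.09, limma, adjusted p = 2.66e-15). A375R tumours grown alone held 4731, 5773 and 4431 under vehicle and 5269, 5459 and 4140 under vemurafenib (-0.008 ± 0.17, limma, adjusted p = 0.99). In mixed A375R tumours PHLDA2 went from 6919, 6619 and 5946 to 4905, 3779 and 2697 (-0.81 ± 0.17, limma, adjusted p = 0.0156). That call was lost without mixed vehicle replicate 1 (adjusted p = 0.0848) or mixed vemurafenib replicate 3 (adjusted p = 0.056). The interaction of drug and mixing did not pass (-0.81 ± 0.24, limma, adjusted p = 0.0776).

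**Figure D2:**
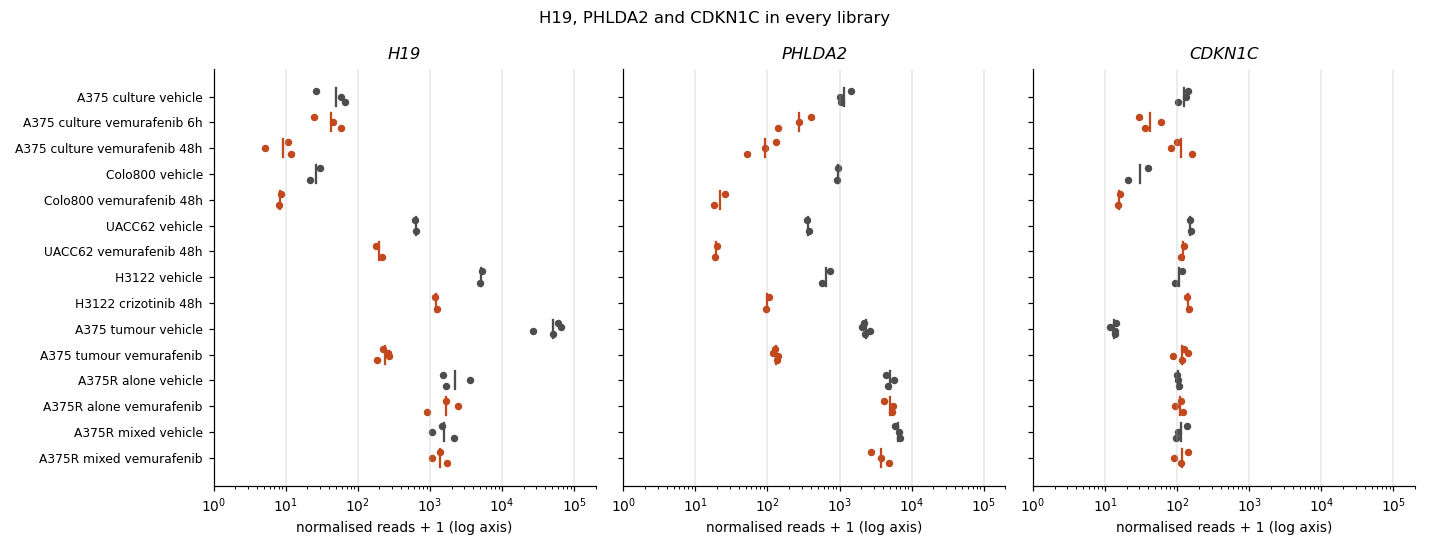
Normalised reads + 1 (log axis) of H19, PHLDA2 and CDKN1C, 3 genes of the chromosome 11 clusters, in each library (points) by group, with the group mean as a short line; vehicle is dark grey and drug orange-red. In A375 tumours H19 and PHLDA2 are lower in all 4 treated libraries and CDKN1C is higher in all 4.

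PEG10, an activator of growth in placenta and in several cancers, separated the lines by level and fell most where the sensitive melanoma lines were treated. UACC62 went from 6020 and 5610 normalised reads to 326 and 455 (-3.91 ± 0.15, 14.9-fold lower between means, the 167th lowest of 13649 genes). Colo800 went from 602 and 582 to 114 and 128 (-2.28 ± 0.09). A375 tumours went from 106, 73.6, 117 and 88.8 to 34.3, 28.4, 44.7 and 35.4 (-1.40 ± 0.18). In each of these 3 tables the drug and vehicle libraries were apart. A375 culture at 48 h (33.9, 40.3 and 45.3, from 85.0, 52.1 and 57.4) also lay below vehicle, but its -0.67 ± 0.28 did not pass. H3122 kept 7446 and 6294 under vehicle and 5813 and 6188 under crizotinib (-0.19 ± 0.10, not past the threshold). In RPM, PEG10 stood at 477 in H3122 and 451 in UACC62 under vehicle, whose ranges overlapped, and at only 0.452 to 0.870 in the 4 A375R groups.

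MEST, known for promoting fetal growth, and PLAGL1, known for slowing the cell cycle, both fell in A375 tumours. MEST went from 319, 330, 391 and 293 to 177, 211, 208 and 221 (-0.70 ± 0.11), and PLAGL1 from 144, 100, 153 and 109 to 38.4, 64.0, 48.7 and 69.5 (-1.20 ± 0.19). Neither gene had overlapping groups there. MEST was close to silent in the other melanoma lines, with 0 to 3.09 normalised reads per library in Colo800 and UACC62, and highest in H3122, where it went from 1177 and 1260 to 1013 and 1011 (-0.27 ± 0.09). That H3122 call was lost with DESeq2, with quantile normalisation (-0.18) and without vehicle replicate 2 or either crizotinib replicate (-0.22 to -0.27). In A375 culture MEST held 126, 185 and 149 under vehicle, 103, 155 and 102 at 6 h and 124, 143 and 112 at 48 h. The groups overlapped, 2 of 3 libraries at each time lay below the vehicle range, and the log2 changes of -0.36 ± 0.22 and -0.27 ± 0.22 did not pass.

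PLAGL1 also fell in Colo800, from 28.2 and 34.5 to 10.1 and 14.4 (-1.30 ± 0.31). It did not pass in UACC62 (-0.51 ± 0.20), H3122 (0.32 ± 0.16) or A375 culture, where vehicle samples held 30.4, 40.1 and 20.7, 6 h samples 61.9, 43.1 and 30.8 and 48 h samples 22.3, 23.8 and 30.9. PLAGL1 levels in RPM were highest in vehicle-treated A375 tumours (9.61 ± 2.20) and lowest in treated Colo800 (0.926), and 11 of 14 neighbouring pairs overlapped.

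NDN, a suppressor of growth, was the one of the 8 that rose under vemurafenib in all 3 melanoma lines. A375 culture held 149, 165 and 211 normalised reads under vehicle, 176, 213 and 234 at 6 h, and 259, 317 and 313 at 48 h (0.77 ± 0.18 at 48 h; 0.25 ± 0.18 at 6 h, not past the threshold). Colo800 went from 551 and 622 to 744 and 739 (0.34 ± 0.07) and UACC62 from 399 and 379 to 620 and 499 (0.51 ± 0.13). At 48 h every treated library lay above every vehicle library in these lines. The changes were modest, at most 1.69-fold between means. The UACC62 call was lost without either vehicle replicate (0.55 and 0.48). A375 tumours went from 135, 168, 150 and 194 to 246, 214, 271 and 241 (0.60 ± 0.12). In H3122 NDN had 0 reads in all 4 libraries. Of its neighbours in the same cluster, MAGEL2 rose in UACC62, from 8.32 and 16.5 to 56.9 and 53.0 (2.13 ± 0.34, limma, adjusted p = 0.00076), and MKRN3 in A375 tumours by 0.35 ± 0.13 (adjusted p = 0.0239), a call lost without vehicle replicate 2 or 3 or treated replicate 2 or 3 (adjusted p up to 0.0719). UBE3A, of the same region, fell in UACC62 (-0.33 ± 0.10, adjusted p = 0.022; lost without either vehicle replicate) and in A375 culture at 48 h (-0.41 ± 0.14, adjusted p = 0.032; lost without vehicle replicate 1 or 48 h replicate 2 or 3). Both UBE3A calls were also lost with quantile normalisation.

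MEG3, a noncoding RNA known for slowing growth, was absent or nearly so in every line and did not pass the filter in any table. The largest count in any library was 13 reads (10.6 normalised reads), in mixed A375R tumours under vemurafenib, replicate 1; both other libraries of that group had 0. All A375 culture, Colo800 and H3122 libraries had 0 reads.

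**Figure D3:**
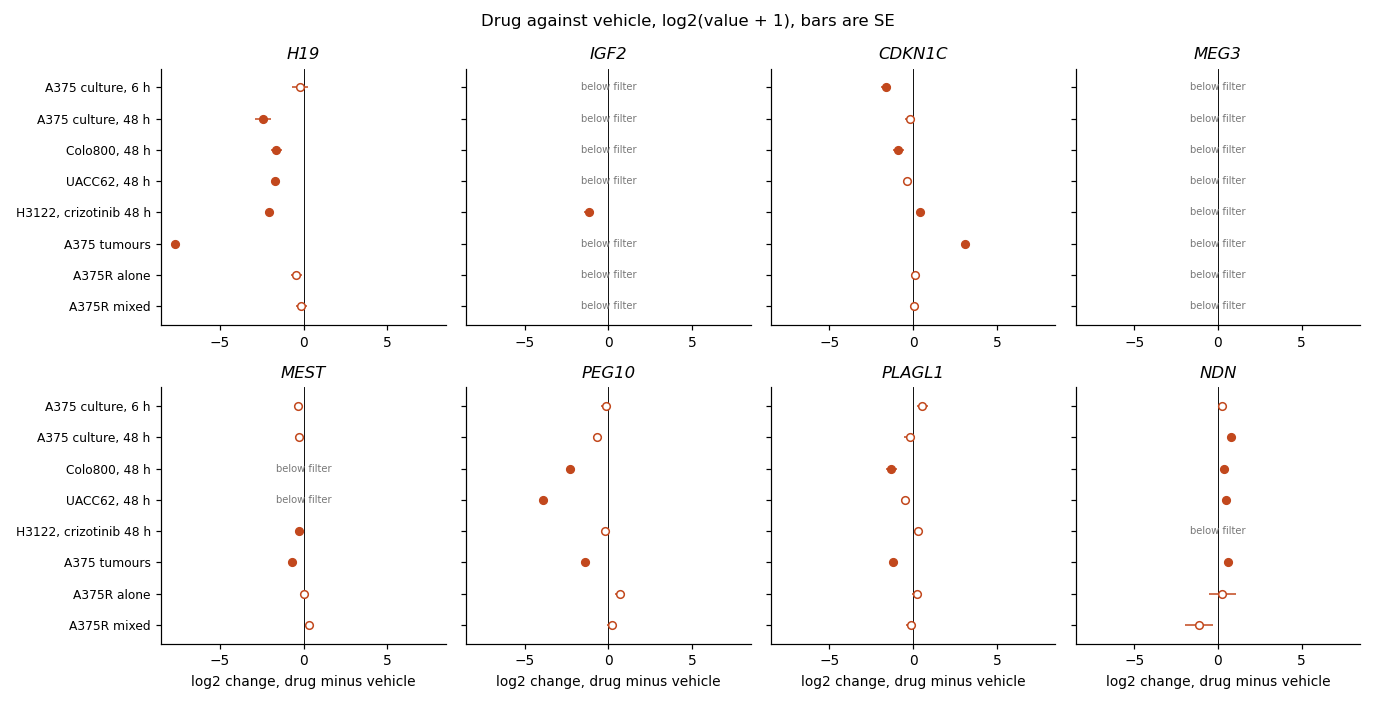
Log2 change, drug minus vehicle, of each gene in each of the 8 drug comparisons, with bars for the SE; filled points passed an adjusted p of 0.05 over all genes in the table, open points did not, and genes under the filter are marked. H19 lies left of 0 in all 8 comparisons and is furthest left in A375 tumours (-7.69), while CDKN1C lies at 3.13 there.

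Read against all genes, the number of these genes past the threshold was often near what the table gave as a whole, since the drugs changed a large share of genes. In A375 culture at 6 h, 1 of the 6 that passed the filter was called lower. In the same fit, which has no replicate block, 4.40% of all genes were called (1.07% higher and 3.33% lower), and more were called with the block. At 48 h, 2 of 6 were called, 1 each way, beside 50.0% of all genes (24.3% higher and 25.6% lower), and between 6 h and 48 h 3 of 6 beside 39.3%. In Colo800 all 5 that passed the filter were called (1 higher and 4 lower) beside 73.3% (36.0% higher and 37.3% lower). In UACC62 3 of 5 were called (1 higher and 2 lower) beside 56.5% (26.9% and 29.6%), and in H3122 4 of 6 (1 higher and 3 lower) beside 46.1% (22.1% and 24.0%). In A375 tumours all 6 that passed were called (2 higher and 4 lower) beside 68.3% (34.2% and 34.0%). Since the drug contrasts were used in picking the genes, nothing is read from these counts.

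In A375R tumours none of the 6 genes that passed the filter was called under vemurafenib, again a description of contrasts used in picking them. Alone, 0 of 6 were called with limma, edgeR and DESeq2, beside 0.792% of all genes called with limma. An unadjusted p under 0.05 was seen for 1 of the 6, beside 18.4% of all genes. Mixed, 0 of 6 were called with all 3 tools, beside 3.48% of all genes called with limma. Of the 6, 0 had an unadjusted p under 0.05, beside 20.1% of all genes. PEG10 had the largest change with tumours alone, from 14.5, 13.1 and 21.3 normalised reads under vehicle to 26.3, 29.9 and 23.9 under vemurafenib (0.70 ± 0.28), without overlap.

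Levels were next set side by side between A375 tumours and A375 culture, both under vehicle. Tumour RNA was ribosome-bound and culture RNA whole-cell, so growth as a tumour and the RNA fraction cannot be told apart, and the tables were normalised separately; no test was made. H19 was 902-fold higher in tumours (3850 ± 1312 against 4.27 ± 1.87 RPM), the 4th highest difference of 13658 genes on the log2(RPM + 0.1) scale. CDKN1C was 11.5-fold lower (0.927 ± 0.0719 against 10.6 ± 1.54), and PLAGL1 3.68-fold higher (9.61 ± 2.20 against 2.61 ± 0.865). MEST was 1.92-fold higher (25.2 ± 3.68 against 13.1 ± 2.65), and PEG10 and NDN differed by log2 0.40 and -0.29. So 3 of the 6 genes with a mean of at least 1 RPM over both groups differed at least 2-fold without overlap, beside 31.2% of all genes (13.4% higher and 17.9% lower in tumours). After vemurafenib the tumour levels of H19 and CDKN1C (14.8 and 7.33 RPM) lay nearer to those of vehicle-treated culture than the vehicle tumours' levels did. The melanocyte marker sum moved with them: 57.3 to 85.7 in vehicle tumours, 439 to 492 in treated tumours and 762 to 982 in culture. Its part in the result was not tested.

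A375R tumours grown alone differed from A375 tumours in all 6 genes compared, again under vehicle and between tables. NDN was nearly absent (0.0335 RPM from 4 reads, against 12.2 ± 1.55), and H19 was 61.3-fold lower (62.8 ± 34.3 against 3850). PEG10 was 16.2-fold, PLAGL1 7.44-fold and MEST 3.97-fold lower. CDKN1C was 3.02-fold higher (2.80 ± 0.152 against 0.927). At least 2-fold differences without overlap were seen in 45.6% of all genes (6.11% higher and 39.5% lower), and the median gene was lower by log2 0.73 in A375R tumours, so the lower levels stand against that shift. Both sets were ribosome-bound RNA.

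A375R tumours grown with A375 cells were then tested against those grown without them. Under vehicle, 1 of the 6 genes that passed the filter was called, NDN, beside 3.30% of all genes (1.93% higher and 1.37% lower). NDN had 1.12, 2.46 and 0 normalised reads alone and 36.4, 20.3 and 18.5 mixed, 4 against 78 reads in all, and the groups did not overlap. NDN passed the filter only through the mixed libraries (means of 1.19 and 1.73 alone and 25.1 and 16.1 mixed, under vehicle and vemurafenib), so its place among the 6 supports nothing by itself. The log2 difference was 3.68 ± 0.81 (limma, adjusted p = 0.0198; 0.018 with no filter on low values). It was lost without alone vehicle replicate 1 (3.75, adjusted p = 0.0672), alone vehicle replicate 3 (3.20, adjusted p = 0.11) or mixed vehicle replicate 1 (3.39, adjusted p = 0.13). Under vemurafenib the values were 0, 2.80 and 2.39 alone and 31.7, 14.96 and 1.83 mixed, which overlapped (2.28 ± 0.81, limma, adjusted p = 0.28), and the interaction was -1.40 ± 1.15 (adjusted p = 0.539).

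A375 cells themselves carry NDN, at 12.2 RPM in their own vehicle tumours against 0.835 in mixed and 0.0335 in pure A375R tumours. Under vehicle the melanocyte marker SOX10 moved in the same direction: 129, 55.8 and 118 normalised reads alone and 1021, 508 and 837 mixed. Under vemurafenib SOX10 held 349, 123 and 69.4 alone and 91.7, 254 and 59.5 mixed, which overlapped. NDN in the same libraries held 0, 2.80 and 2.39 alone and 31.7, 14.96 and 1.83 mixed. The melanocyte list summed to 27.4 to 50.1 RPM in mixed vehicle tumours, against 11.3 to 21.4 alone, with TYR and DCT at 0 in both. Titles of the A375R tumours, alone and mixed, name RPL10a beside A375R, and how much RNA of untagged cells came along was not measured. Whether RNA of A375 cells accounts for NDN in mixed tumours was not tested.

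PLAGL1 and PEG10 were also higher in every mixed than every pure vehicle tumour without passing the threshold. PLAGL1 held 48.1, 45.2 and 47.7 alone and 120, 75.3 and 58.9 mixed (0.78 ± 0.30, limma, adjusted p = 0.174). PEG10 differed by 0.70 ± 0.28 (adjusted p = 0.196) and MEST by -0.42 ± 0.18 (adjusted p = 0.212). Under vemurafenib 0 of 6 genes were called between mixed and pure tumours with limma, edgeR and DESeq2, beside 0.240% of all genes called with limma. An unadjusted p under 0.05 was seen for 1 of the 6, beside 12.4% of all genes. For the interaction of drug and mixing 0 of 6 were called with all 3 tools, beside 2.89% of all genes called with limma. Of the 6, 0 had an unadjusted p under 0.05, beside 18.9% of all genes.

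Of the 4 gene lists around these genes, those that changed with mixing under vehicle all rose. In the partners list RTL1, the neighbour of MEG3 expressed from the paternal copy, was the 1 gene called of 10 tested, and it passed the filter only through the mixed vehicle libraries. It held 1.12, 0.821 and 2.38 normalised reads alone and 104, 15.5 and 11.4 mixed (3.56 ± 0.84, limma, adjusted p = 0.0289; 0.0212 with no filter on low values). A single mixed library, replicate 1, carried most of it. Without that library the adjusted p was 0.21, and without any single alone replicate 0.07 to 0.109. In the list of the IGF axis, which holds receptors, binding proteins and RNA-binding partners of the insulin-like growth factors, 3 of 15 were called, beside 3.30% of all genes. PAPPA, a protease that cleaves IGF binding proteins, held 12.3, 16.4 and 11.9 alone and 358, 84.8 and 81.8 mixed (3.24 ± 0.52, limma, adjusted p = 0.00212), a call kept in each fit that left out a library. The binding proteins IGFBP5 (16.1 ± 6.81 to 153 ± 141; 2.86 ± 0.61, adjusted p = 0.0161) and IGFBP2 (174 ± 17.8 to 442 ± 211; 1.25 ± 0.27, adjusted p = 0.0198) lost their calls without mixed replicate 1 (adjusted p = 0.111 and 0.119) and without alone replicate 1 or 2, IGFBP2 also without alone replicate 3. A375 tumours under vehicle held 1903, 1574 and 124 normalised reads of IGFBP5, IGFBP2 and PAPPA in their own table, and only 3.18 of RTL1. Mixed vehicle replicate 1 was the highest library for NDN, RTL1, PAPPA, IGFBP5 and IGFBP2 alike.

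**Figure D4:**
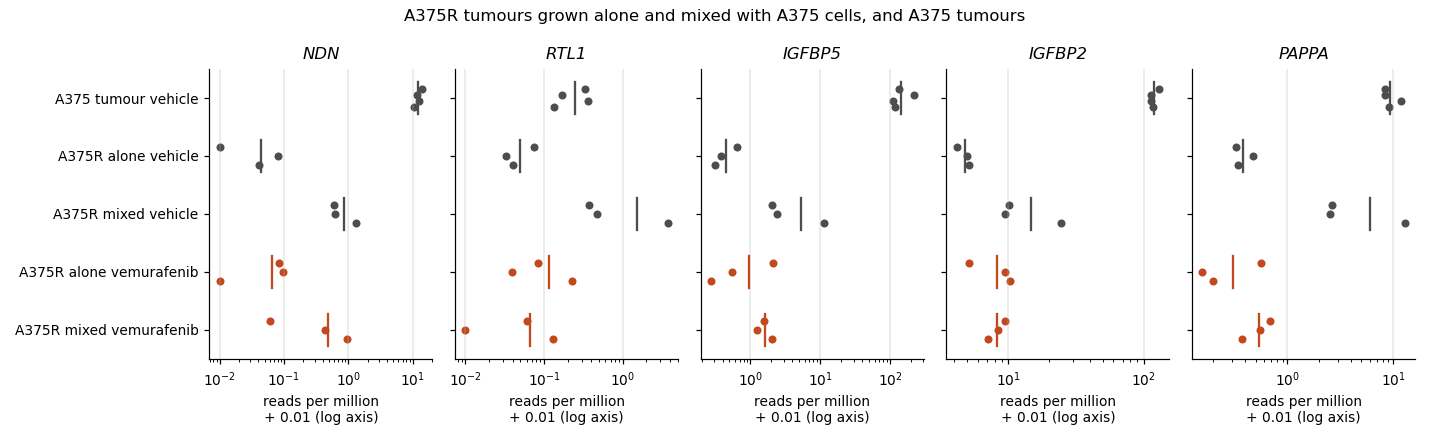
RPM (+ 0.01, log axis) of NDN, RTL1, IGFBP5, IGFBP2 and PAPPA in each library (points) of vehicle-treated A375 tumours and of A375R tumours grown alone or mixed with A375 cells, under vehicle (dark grey) or vemurafenib (orange-red), with group means as short lines. Under vehicle the 3 mixed libraries lie above the 3 pure A375R libraries for all 5 genes. For RTL1 all 3 mixed vehicle libraries lie above the A375 tumours too, and for PAPPA the highest of them does.

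The other genes of these pathways were counted in the same drug contrasts, to be read against the share of all genes called in each table. Of the IGF axis, 5 of 15 genes tested rose and 7 fell in A375 tumours, beside 68.3% of all genes called (median log2 change -0.24, against 0.00 over all genes). IGF2BP3, which binds IGF2 and H19 RNA, went from 6029 ± 720 to 852 ± 60.7 normalised reads (-2.82 ± 0.09, limma, adjusted p = 8.86e-14). IGFBP5 rose from 1903 ± 632 to 5375 ± 989 (1.53 ± 0.17, adjusted p = 4.9e-07). IGFBP5 rose in A375 culture at 48 h (2.50 ± 0.41, adjusted p = 0.000566), Colo800 (0.89 ± 0.24, adjusted p = 0.00257) and H3122 (3.19 ± 0.17, adjusted p = 4.47e-08), but fell in UACC62 (-2.88 ± 0.14, adjusted p = 7.16e-07). The counts for the axis were 0 higher and 4 lower of 15 at 6 h (beside 4.40% of all genes called), 4 and 6 of 15 at 48 h (50.0%), 3 and 8 of 13 in Colo800 (73.3%), 4 and 7 of 13 in UACC62 (56.5%), and 4 and 6 of 14 in H3122 (46.1%). IGF1, the other ligand, had a mean of 0.462 normalised reads under vehicle and 20.3 under vemurafenib in UACC62, and entered the fit only through the treated libraries.

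Among partners at the same loci, 4 of 8 tested rose and 1 fell in A375 tumours (68.3% of all genes called), COPG2 (next to MEST) by 0.70 ± 0.10 (limma, adjusted p = 8.05e-06) and PHLDA2 being the lone fall. KCNQ1OT1, the noncoding RNA that silences the CDKN1C cluster on the paternal copy, rose there from 15.2 ± 5.04 to 28.1 ± 3.53 (0.89 ± 0.26, limma, adjusted p = 0.0062). It fell in Colo800 (-0.95 ± 0.14, adjusted p = 9.27e-06) and UACC62 (-1.85 ± 0.31, adjusted p = 0.00108), and its values and those of KCNQ1, which it overlaps, cannot be fully told apart without strand. The paternal neighbour of PEG10, SGCE, did not follow PEG10. SGCE rose in UACC62 (0.38 ± 0.10, limma, adjusted p = 0.0103; lost without either vehicle replicate, at 0.191 and 0.19) and fell a little in Colo800 (-0.23 ± 0.05, adjusted p = 0.00108), against -3.91 and -2.28 for PEG10.

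Of the list of other imprinted genes, 1 of 10 tested rose and 5 fell in A375 tumours (68.3% of all genes called). GRB10, an adaptor that restrains insulin and IGF signalling, went from 1033 ± 102 to 394 ± 44.5 (-1.39 ± 0.10, limma, adjusted p = 1.65e-09), and GNAS, a G protein subunit, by -1.31 ± 0.10 (adjusted p = 5.06e-09). In culture the same list gave 0 higher and 5 lower of 10 in A375 at 48 h (50.0% of all genes), 5 and 1 of 11 in Colo800 (73.3%), 2 and 3 of 10 in UACC62 (56.5%) and 6 and 3 of 11 in H3122 (46.1%). GNAS itself rose in Colo800 (0.33 ± 0.04, adjusted p = 8.48e-07) and H3122 (0.52 ± 0.10, adjusted p = 0.00108), and fell in UACC62 (-0.61 ± 0.09, adjusted p = 0.000385) and A375 culture at 48 h (-1.13 ± 0.19, adjusted p = 0.000654).

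Of the genes that write and keep DNA methylation, UHRF1, which brings the maintenance enzyme to replicating DNA, had the strongest changes. UHRF1 went from 437 ± 29.9 to 83.4 ± 10.1 in A375 tumours (-2.38 ± 0.11, limma, adjusted p = 1.23e-11), and fell by 3.64, 4.29 and 4.40 on the log2 scale in A375 culture at 48 h, Colo800 and UACC62. DNMT1, that maintenance enzyme, fell by 0.90 on the log2 scale in A375 tumours (adjusted p = 1.83e-08). Of the 12 genes tested, 2 rose and 6 fell in A375 tumours (beside 68.3% of all genes called), 1 and 4 in A375 culture at 48 h (50.0%), 1 and 8 in Colo800 (73.3%), 2 and 6 in UACC62 (56.5%) and 1 and 3 in H3122 (46.1%). DNA methylation itself was not measured in these files.

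Likeness of pattern was taken as Pearson's r over the 15 group means of log2(RPM + 1), among 10600 genes; groups share tables and lines, so r is a description. The genes most like H19 were CHST15 (0.887), RHOV (0.883) and PTPRE (0.881). NDN had TUB (0.985), GAS7 (0.984) and ZNF28 (0.980), and MEST had TRIM59 (0.976), PKP3 (0.974) and IL28RA (0.961). PEG10 had RNF43 (0.972), TMX1 (0.951) and TBL1XR1 (0.951), genes like PLAGL1 included TEC (0.908) and PDE7A (0.894), and CDKN1C had TLE1 (0.915), GNAO1 (0.836) and GPC6 (0.826). None of these is a neighbour at an imprinted locus in the partners list. IGF2 and MEG3 were too low to compare. Among the 15 pairs of the other 6 genes, H19 and PLAGL1 were the closest (r = 0.662) and MEST and NDN the most opposed (r = -0.61).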

How the data were processed

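Per the submitters' processing notes, the authors used STAR 2.3.0e, HTSeq 0.5.4 and DESeq 1.18.0 with builds hg19 and mm9; the notes give no role or order. The 6 deposited tables hold a normalised signal per gene: reads divided by a size factor of each library. Dividing by the smallest step returned whole reads (100% of values within 0.1). Values are called normalised reads; levels are in RPM, reads per 1000000 reads of the library, computed here. The 8 genes and all lists were chosen with earlier results of these data known. Named beyond the 8 were list genes by smallest adjusted p (up to 3 per list and direction, any partner), and the 3 most alike genes, except 1 that is not reported here. SOX10 and NKX2-1, from the fixed marker lists, are named beside the results or labels they bear on, chosen after their values were seen. The 7 stromal markers are all named.

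Genes with a mean of at least 10 over a table were fitted with limma 3.58.1 (R 4.3.3; mean-variance trend, log2(value + 1), all groups of a table in one fit, two-sided, Benjamini-Hochberg adjusted p under 0.05). Alternatives were other pseudocounts, filters, quantile normalisation, edgeR 4.0.16 and DESeq2 1.42.0 on recovered reads, 2 groups alone, a replicate block and leaving out each library. Levels between tables were compared where the mean of the 2 group means was at least 1 RPM. Genes counted as different at 2-fold or more on log2(RPM + 0.1) without overlap, with no test. The fits were tested on simulated data. Replicate numbers come from the titles. Same-numbered A375 culture libraries deviated together between vehicle and 6 h (correlations 0.567, 0.31 and 0.566) and between 6 h and 48 h (0.436, 0.197 and 0.41). These contrasts met the pairing rule, but the main fit has no replicate block. A375 culture values come from that unpaired fit unless a block is named. With the block 1462 in place of 608 genes were called at 6 h.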

Additional observations from a re-analysis of the deposited data

Results flagged for a closer look

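The drug difference of CDKN1C went opposite ways in the same comparison of drug with vehicle. It was 3.13 in A375 tumours and -1.63 in A375 culture at 6 h, 4.76 apart on the log2 scale, and -0.88 in Colo800 at 48 h, 4.003 apart, with every treated library above vehicle in tumours and every treated library below it in the cultures. These differences between tables were not tested, and ribosome-bound tumour RNA, dose and time cannot be told apart from growth as a tumour.

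In 4 of 16 groups of 4 tumour libraries a single library stood apart by a rule on gaps between values. The rule flags any library with reads where the others are all at 0, so no chance rate applies. Each of the 4 flags rests on few reads with 0 in the other libraries. IGF2 reached 0.5089 normalised reads in 1 vehicle A375 tumour and 0.6433 in 1 treated A375 tumour, each a single read. MEG3 reached 0.5089 in 1 vehicle A375 tumour, a single read, and 5.046 in 1 treated A375 tumour, from 5 reads.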

How the results depend on the processing

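In A375 tumours all 6 calls under vemurafenib held in every alternative run. The number of the 8 genes called changed elsewhere as follows, and the cause was not tested unless the setting itself removes genes. With a filter of 50, which leaves genes untested, it was 1 in A375 culture at 48 h, 2 in Colo800 and 0 in mixed against pure A375R tumours under vehicle. In H3122 it was 2 with quantile normalisation, 1 with DESeq2 and 2 with a replicate block. Leaving out single libraries gave 0 to 1 in A375 culture at 6 h, 2 to 5 in UACC62, 1 to 4 in H3122 and 0 to 1 in mixed against pure A375R tumours under vehicle. Same-numbered H3122 libraries deviated against each other (correlation -0.209); with crossed numbers, chosen after seeing the data, 5 of the 8 genes and 8522 in place of 6436 of all genes were called. With a replicate block PEG10 at 48 h in A375 culture (-0.67) passed, though vehicle and 48 h libraries did not meet the pairing rule. Where numbers did pair in A375 culture, the block changed no call of the 8 genes. Scaling to symbols listed in all tables moved the highest group mean of CDKN1C to 11.84 and of NDN to 56.56 RPM.

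Changes that did not pass the threshold turned sign in places. The CDKN1C interaction was 0.01432 with quantile normalisation. When single libraries were left out, log2 changes at 6 h in A375 culture ran from -0.6325 to 0.1317 for H19 and -0.3655 to 0.0575 for PEG10, at 48 h from -0.4764 to 0.02364 for CDKN1C and -0.445 to 0.01627 for PLAGL1, and between 6 h and 48 h from -0.01402 to 0.2898 for MEST. For A375R under vemurafenib they ran from -0.08339 to 0.2185 for MEST and -0.2082 to 0.8858 for NDN alone, and from -0.3886 to 0.1309 for H19, -0.1146 to 0.1988 for CDKN1C and -0.3714 to 0.1515 for PLAGL1 mixed. Mixed against alone gave -0.04819 to 0.1988 for CDKN1C under vehicle, and -0.5609 to 0.1548 for H19 and -0.09207 to 0.2214 for CDKN1C under vemurafenib. The interaction gave -0.09253 to 0.6251 for H19 and -0.1993 to 0.1141 for CDKN1C.

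Counts over all genes in the A375R table were small and moved most. Alone under vemurafenib 109 genes were called, 14 without a filter, 748 with DESeq2, 298 with a replicate block, 530 from the 2 groups alone and 1 to 326 without single libraries. Mixed, 478 became 958 with DESeq2, 229 from the 2 groups alone and 105 to 562 without single libraries. Mixed against alone gave 454 under vehicle (297 with a filter of 50, 870 with DESeq2, 124 to 668 without single libraries) and 33 under vemurafenib (10 with quantile normalisation, 13 with edgeR, 152 with DESeq2, 65 with a replicate block, 8 from the 2 groups alone, 1 to 38 without single libraries). The interaction gave 397, 185 without a filter, 887 with DESeq2 and 10 to 539 without single libraries. At 6 h in A375 culture, 608 genes became 1045 with DESeq2 and 309 to 640 without single libraries. Depth limits IGF2, MEG3 and, in A375R tumours, NDN, which rest on few reads.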
